A study of Mus musculus with 6 samples.

Results

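A set of 6 genes of striated muscle, Tnnt3, Tnni2, Tnnt1, Ckm, Chrng and Myog, were followed in embryonic mouse hearts with reduced NKX2-5. They were picked by gene symbol from the 1577 genes (1492 of them protein-coding) of the deposited table, with its values known. That all 6 are listed is therefore a matter of choice and not a result. They are the 3 skeletal-type troponin genes that the table lists and a small set of other skeletal muscle genes. The hearts came from the Nkx2-5 hypomorphic line on a C57BL/6 background at E11.5, with 3 control hearts, labelled WT and described as littermates, and 3 hypomorphic hearts. The hypomorph has less NKX2-5 rather than none, and the methods name an Nkx2-5-IRES-Cre and an Nkx2-5-gfp line for genotyping, but the labels do not say which alleles each heart carried. RNA was made from whole hearts, so that myocardium, endocardium, epicardium, mesenchyme and blood were measured together, and in such bulk samples fewer cells of a type and less RNA per cell cannot be told apart.

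Troponin is the calcium switch of the thin filament. It has a calcium-binding subunit (troponin C), an inhibitory subunit (troponin I) and a tropomyosin-binding subunit (troponin T), and separate genes encode the fast skeletal, slow skeletal and cardiac forms of the last 2. Tnnt3 and Tnni2 encode the fast skeletal forms of troponin T and troponin I, and Tnnt1 encodes the slow skeletal form of troponin T. Ckm encodes the muscle form of creatine kinase, which restores ATP beside the sarcomere. Chrng encodes the gamma subunit of the fetal muscle acetylcholine receptor, and Myog encodes myogenin, a basic helix-loop-helix factor of skeletal muscle differentiation. The embryonic heart is known to transcribe several skeletal muscle isoforms before its adult isoforms take over.

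The deposited table gives 1 value per gene and group, with no value for a single heart. It holds the authors' mean raw reads and the authors' mean normalized log2 values, and it lists only genes that passed the authors' AC test, which compares the reads of a gene between libraries, and a limit of 1.5-fold. The spread between hearts and the depth per heart are therefore unknown, no test between the groups was possible, and the values below are descriptions. A gene that is not in the table was not analysed here, which does not mean that it was not expressed. Nkx2-5 itself was not in the table. It did not pass both limits or was not among the genes counted. No value of it could be read, so the labels could not be checked with the reduced gene. Transcripts of heart muscle were abundant in both groups, the atrial myosin light chain Myl7 at 176094 raw reads in the control group against 199161 in the hypomorph. Of 16 erythroid genes, 14 were listed, all 14 higher in hypomorphic hearts (normalized difference 0.62 to 1.84), where 42.0% of the listed protein-coding genes were. Without scaling, 8 of the 14 were higher by at least 1.5-fold, against 11.1%. Of 15 macrophage genes, 5 were listed, all 5 lower (-3.59 to -0.62), where 58.0% of the listed protein-coding genes were. Without scaling, all 5 were lower by at least 1.5-fold, against 58.1%. Xist, the RNA of the inactive X chromosome, stood at 16340 raw reads in the control group against 53613 in the hypomorph, with a normalized difference of 8.74 against a log2 ratio of raw means of 1.71, and the sex of the hearts was not given. The part of blood, macrophages or sex in the differences of the 6 muscle genes was not tested.

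The 6 muscle genes went in both directions. Tnnt3, Tnni2 and Myog were higher in hypomorphic hearts, and Tnnt1, Ckm and Chrng were lower. Among the listed protein-coding genes 42.0% were higher and 58.0% lower, so 3 of 6 in each direction is near the background of the table on this scale. From raw means with no scaling, 2 of 6 were higher and 3 of 6 lower by at least 1.5-fold, against 11.1% and 58.1% of the listed protein-coding genes. The size of the differences stood further out. All but Tnni2 differed by at least 2-fold on the normalized scale, 2 of 6 being higher and 3 of 6 lower by that much, while 32.5% of the listed protein-coding genes did so, 14.6% being higher and 17.9% lower. The median absolute difference was 1.69 on the log2 scale over the 6 genes and 0.83 over all listed protein-coding genes. The genes were chosen with these values known, so neither number is evidence about muscle genes in general.

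**Figure D1:**
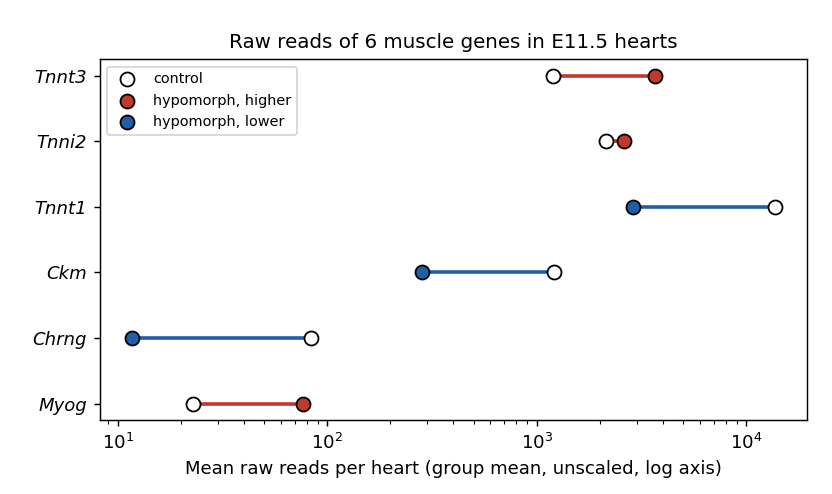
Authors' mean raw reads of each gene in control hearts (white) and hypomorphic hearts (red where higher, blue where lower), before any scaling between groups, on a log axis. Each point is 1 group value over 3 hearts, with no error bar because no value per heart was given. Tnnt1 went from 13685 to 2879 reads, and the shortest line is that of Tnni2, from 2135 to 2608.

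The fast skeletal troponin T gene was higher in hypomorphic hearts. On the normalized scale its difference was above that of Myog, while from raw means its log2 ratio was below that of Myog (1.62 against 1.73). The 6 alternatives described below all start from these raw means, so they repeat the same comparison. The authors' mean for Tnnt3 was 1198 raw reads in the control group against 3684 in the hypomorph, and normalized values of -0.97 and 1.11. The normalized difference of 2.08, a 4.24-fold higher level, ranked 19 of the 627 genes listed as higher. Before scaling, the log2 ratio of raw means was 1.62, with a 95% interval of 1.53 to 1.72. This interval is the exact Clopper-Pearson one, taking each group mean, rounded, as a single count. It covers the counting error of a single count of that size, which is wider than that of a mean over 3 hearts. It says nothing of differences between hearts.

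Tnni2, which encodes the inhibitory partner of fast troponin T, was higher by much less. Its raw means were 2135 in control and 2608 in hypomorphic hearts, and its normalized values were -0.46 and 0.30. The normalized difference of 0.76 (1.70-fold) ranked 395 of 627 and is close to the 1.5-fold limit of the list, which is 0.58 on the log2 scale. Unscaled, the log2 ratio was 0.29 (interval 0.21 to 0.37), under that limit. The normalized difference of Tnnt3 exceeded that of Tnni2 by 1.32, or 2.50-fold, and any scaling factor common to all genes cancels in this comparison.

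The slow troponin T gene was lower. Tnnt1 was the most abundant of the 6 genes in control hearts, with more raw reads than 96.4% of the listed protein-coding genes, and stood at 13685 raw reads against 2879 in the hypomorph. Its normalized values were 0.98 and -0.78, a difference of -1.75 (3.37-fold lower), which ranked 60 of the 865 genes listed as lower. The log2 ratio of raw means was -2.25 (interval -2.31 to -2.19).

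The order of Tnnt3 and Tnnt1 was opposite in the 2 groups. Per kb of the longest annotated transcript (1079 bp for Tnnt3, 1059 bp for Tnnt1), the control level of Tnnt1 was 12922 reads per kb and that of Tnnt3 was 1111, a ratio of 11.6. In hypomorphic hearts the levels were 2719 and 3414 reads per kb, so that Tnnt3 was above Tnnt1 by a ratio of 1.26. The share of Tnnt3 in the sum of the 2 skeletal troponin T transcripts, per kb, was 7.91% in control and 55.7% in hypomorphic hearts. The difference of Tnnt3 minus that of Tnnt1 was 3.83 on the normalized log2 scale (14.3-fold) and 3.87 from raw means. Because both genes are measured in the same libraries, this contrast does not depend on the scaling between groups. The summed level of the 2 transcripts was 14033 reads per kb in control and 6133 in hypomorphic hearts before scaling. Per kb, Tnni2 (transcript of 895 bp) had 2386 reads in control and 2914 in hypomorphic hearts, which was 2.15 times the level of Tnnt3 in control and 0.853 times in hypomorphic hearts.

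**Figure D2:**
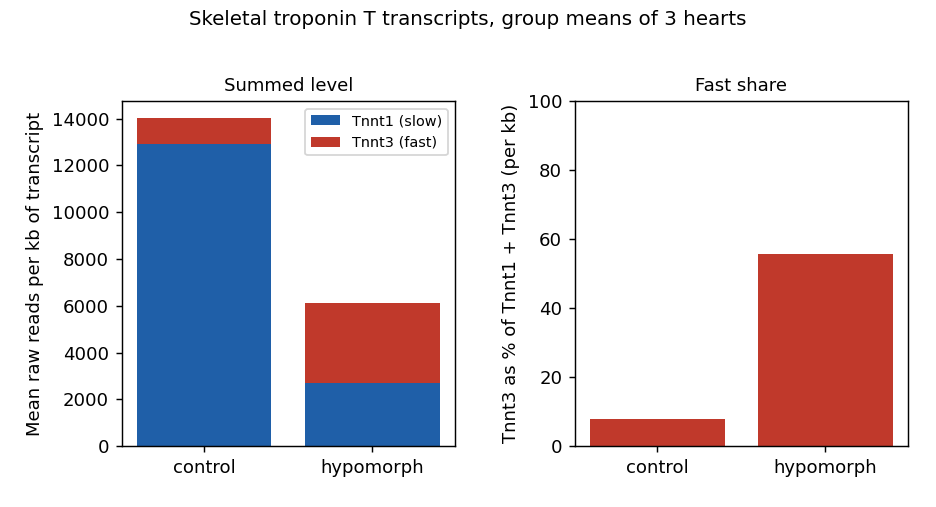
Left, stacked bars of the authors' mean raw reads per kb of transcript for Tnnt1 (blue) and Tnnt3 (red) in each group of 3 hearts, unscaled. Right, Tnnt3 as a percentage of both, 7.91% in control and 55.7% in hypomorphic hearts. No error bars are drawn since values per heart were not given.

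The other 5 of the 8 troponin genes looked for, Tnnt2, Tnni3 and Tnnc1 of the heart and Tnni1 and Tnnc2 of slow and fast skeletal muscle, were not in the table and were not analysed here. The slow skeletal troponin I, Tnni1, could therefore not be set beside Tnnt1.

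The normalized values carry a factor between the groups, and among the 6 genes Tnni2 was the one whose place past 1.5-fold depended on it. Myl7 and many others of the genes listed as higher are also under 1.5-fold without it. Over the listed protein-coding genes the normalized difference was larger than the log2 ratio of raw means by a median of 0.47, a factor of 1.38 in favour of hypomorphic hearts. Under 5 other scalings and with a pseudocount of 1 read, Tnnt3 lay between 1.25 and 2.71, Myog between 1.36 and 2.82, Tnnt1 between -2.62 and -1.16, Ckm between -2.46 and -1.003, and Chrng between -3.20 and -1.74. These 5 genes kept their direction and stayed past 1.5-fold under each of them. Tnni2 lay between -0.080, with raw reads scaled to the total of the table, and 1.38, with the median ratio over listed genes, and was past 1.5-fold in 2 of the 6. The mean normalized difference of the 2 fast troponin genes, 1.42, exceeded that of the other 4 genes, -1.04, by 2.46. That mean conceals Myog, which was higher, and over the 3 lower genes alone the mean was -1.93.

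**Figure D3:**
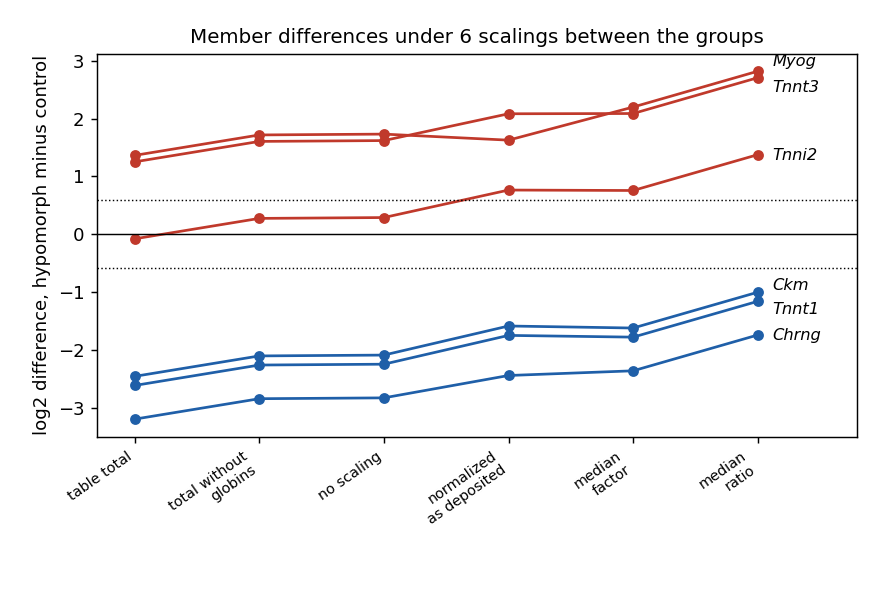
Log2 difference between hypomorphic and control hearts (vertical axis) of each gene under 6 scalings of the group values (horizontal axis). Dotted lines mark 1.5-fold. The 3 lower genes (blue) stay below the lower line and Tnnt3 and Myog above the upper one, while Tnni2 runs from -0.080 to 1.38 and crosses it.

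Ckm, like Tnnt1, was lower. It stood at 1204 raw reads in the control group against 282.6 in the hypomorph, with normalized values of 0.53 and -1.06 and a difference of -1.59 (3.01-fold lower), which ranked 84 of 865. The log2 ratio of raw means was -2.09 (interval -2.28 to -1.90). The normalized differences of Tnnt1 and Ckm lay within 0.16 of each other, and the ratio of their levels per kb was 15.2 in control and 13.6 in hypomorphic hearts. Of the 4 creatine kinase genes, 3 were listed, Ckm included, and all 3 were lower, where 58.0% of the listed genes were. Without scaling they were also past 1.5-fold, as 58.1% of the listed protein-coding genes were in the lower direction. For genes listed as lower this could hardly fail, since the factor in the normalized values favours hypomorphic hearts. Ckmt2, the mitochondrial form of striated muscle, had 552.8 and 243.9 raw reads (difference -0.69), and Ckmt1, the ubiquitous mitochondrial form, had 19.7 and 8.51 (difference -0.97). Ckb, the brain form, was not listed. In the annotation of mm9, 31.9% of the exon bases of Ckm overlap A930016O22Rik on the opposite strand, and since the counting is not stated to use strand, reads of the 2 genes may not have been separated.

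Chrng had the fewest reads of the 6 genes in hypomorphic hearts. On the normalized scale its difference was the largest of the 6 in size, but scaled by the median ratio of the table it was -1.74, smaller in size than those of Tnnt3 and Myog. Its raw means were 83.4 in control and 11.7 in hypomorphic hearts, its normalized values were 1.30 and -1.15, and the difference of -2.44 (5.44-fold lower) ranked 17 of 865. With so few reads, and each group mean taken as a single count, the counting interval of the log2 raw ratio of -2.83 was wide. It ran from -3.80 to -1.91, though it stayed well past 1.5-fold. None of the other 11 genes looked for at the muscle acetylcholine receptor and its synapse was listed, the subunits Chrna1, Chrnb1, Chrnd and Chrne among them, so Chrng was the only subunit that could be described.

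Myog, which encodes a factor that is known to activate acetylcholine receptor and Ckm genes in skeletal muscle, was higher where Chrng and Ckm were lower. It stood at 23.0 raw reads in the control group against 76.4 in the hypomorph, with normalized values of -0.29 and 1.34 and a difference of 1.63 (3.09-fold higher), which ranked 42 of 627. The log2 ratio of raw means was 1.73 (interval 1.04 to 2.47). The difference of Myog exceeded that of Chrng by 4.07 and that of Ckm by 3.22 on the normalized log2 scale. Per kb, Myog was at 15.6 reads in control and 51.7 in hypomorphic hearts, while Ckm stood at 851 and 199.7. Myog was the only one of 20 myogenic genes that was listed. Myod1, Myf5, Myf6, Pax3 and Pax7 were among the 19 not listed.

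The group values of Myog did not relate to each other like those of the other 5 genes. For those, the gap between normalized difference and log2 raw ratio was 0.39 to 0.50, around the table's median of 0.47 (quartiles 0.44 and 0.50). For Myog it was -0.10, lower than in all but 7 of the 1492 listed protein-coding genes. Among the 375 protein-coding genes with 38.2 to 152.8 reads in the higher group, which is within 2-fold of Myog, the quartiles were 0.42 and 0.49, and 3 genes had a lower gap than Myog. The gap of Myog was below the median by a factor of 1.49. How the authors averaged the hearts is not given in the sources used here. If raw values are arithmetic means and normalized values are means of logs, the gap is lower where reads are spread less evenly among the hypomorphic than among the control hearts. How the reads of Myog were spread over the 3 hearts of a group was not tested, since values per heart were not given, and its higher mean carries that limit.

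**Figure D4:**
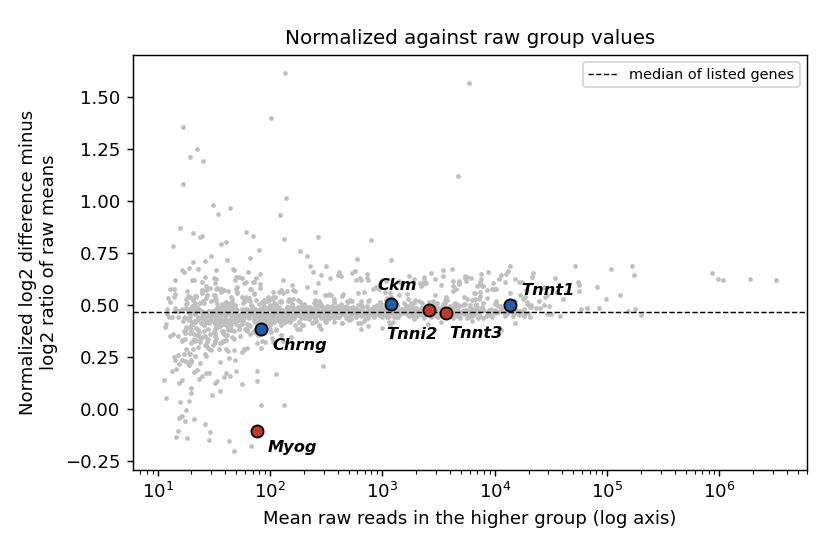
For each listed protein-coding gene (grey) the normalized log2 difference minus the log2 ratio of raw means (vertical axis) against the authors' mean raw reads in the higher group (horizontal, log axis), with the 6 muscle genes in color. The dashed line is the median of 0.47. Myog lies at -0.10, and the other 5 genes lie between 0.39 and 0.50.

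Other muscle genes were mostly not in the table. Of 30 further genes of the skeletal sarcomere and its calcium handling, 4 were listed. Tcap, which encodes telethonin of the Z-disc, was lower (5615 and 2605 raw reads, difference -0.64), as were Pvalb, encoding the calcium buffer parvalbumin (32.7 and 12.2, -1.05), and Mylk2, encoding the skeletal myosin light-chain kinase (17.6 and 8.0, -0.80). Mybph, encoding myosin-binding protein H, was higher (39.5 and 59.6, 1.03). The embryonic and fast skeletal myosins Myh3, Myh8, Myh1, Myh2 and Myh4, the fast light chain Mylpf and alpha-actinin Actn3 were not listed. Defining markers of a skeletal muscle cell other than the 6 genes were thus largely unread here, and whether skeletal or pharyngeal muscle tissue was dissected along with some hearts was not tested. Of 12 genes of head and pharyngeal muscle progenitors, 4 were listed and all 4 were higher on the normalized scale, where 42.0% of the listed genes were, namely Myog, Tbx1 (33.9 and 46.4 raw reads, difference 1.13), Isl1 (514.3 and 722.3, 1.14) and Lhx2 (105.6 and 137.8, 0.81). Without scaling, Myog alone of these 4 was past 1.5-fold, the log2 ratios of Tbx1, Isl1 and Lhx2 being 0.45, 0.49 and 0.38. These 3 also belong to progenitors of the second heart field or other pharyngeal cells.

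Genes of cardiac lists were compared in the same way, although the cardiac troponin genes Tnnt2, Tnni3 and Tnnc1 were not listed. Of 22 cardiac sarcomere genes, 3 were listed, Myl7 being higher (difference 0.63) and Smpx (29078 and 12054 raw reads, -0.81) and Myoz2 (7771 and 3090, -0.85) lower. Among 13 genes of an atrial list, Nppa (178388 and 80838 raw reads, -0.66) and Gja5 (23246 and 10822, -0.62) were lower and Myl7 was higher, with 10 not listed. Pln, Irx3 and Irx5 of a ventricular list were lower (-0.90 to -0.80), with 9 of its 12 genes not listed. Whether the genes of either list are limited to those chambers at E11.5 was not tested. Without scaling, the log2 ratios of Nppa and Gja5 were -1.14 and -1.10 and those of Pln, Irx3 and Irx5 -1.38 to -1.25. That of Myl7 was 0.18, under 1.5-fold. The differences of Tnnt1, Ckm and Chrng were larger in size than in any of these listed cardiac genes, both on the normalized scale and without scaling. Mb, encoding myoglobin, was in none of these lists, and its normalized difference of -1.95 was larger in size than those of Tnnt1 and Ckm. A change in the share of atrial against ventricular tissue between the groups, and its part in the differences of Tnnt3 and Tnni2, was not tested. No genes of an endothelial list of 11 were listed. Of 13 epicardial and mesenchymal genes 1 was listed, Lum at -1.05. Of 16 neural genes 4 were listed, with Th (1.31), Isl1 (1.14) and Sox10 (0.62) higher and Elavl3 (-0.81) lower.

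The positions of the genes were examined for listed neighbours. In mm9, Tnni2 (chromosome 7, 149627713 to 149630315, plus strand) and Tnnt3 (chromosome 7, 149684741 to 149701914, plus strand) lie near each other. Their starts are 57.0 kb apart. Within 500 kb of Tnnt3, 27 other protein-coding genes are annotated and 5 were listed, all 5 higher on the normalized scale and 3 of them past 1.5-fold without scaling, Tnni2 and Tspan32 being under it. The 5 were Tnni2, 6330512M04Rik (169.5 and 265.9 raw reads, difference 1.10), Th (69.5 and 124.5, 1.31), Ascl2 (35.8 and 69.2, 1.42) and Tspan32 (1322 and 1395, 0.62). Across chromosome 7, 49 of 102 listed genes were higher (48.0%). Tnnt1 (4456172 to 4467984, minus strand) and Ckm (19996443 to 20006932, plus strand) lie on the same chromosome but far from this pair. Around Tnnt1 5 of 39 annotated neighbours were listed, 3 of them higher on the normalized scale and none of the 3 past 1.5-fold without scaling, and around Ckm 2 of 54, both lower. Chrng and Myog lie on chromosome 1, at 89102386 to 89108410 and 136186581 to 136189124, both on the plus strand. Efhd1 (difference -1.09) and Ngef (0.83) were the listed neighbours of Chrng. Mybph, named above, lies 88.8 kb from Myog and was higher like it, while Syt2 (0.83), Optc (-0.83) and Prelp (-0.65) were the others near Myog. Ngef and Syt2 were under 1.5-fold without scaling. The window of 500 kb and these neighbours were chosen after values had been seen.

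Promoter sequence of RefSeq (GRCm38.p6, a later build than the mm9 of the read alignment) was matched for 4 of the 6 genes, Chrng, Ckm, Tnnt1 and Myog, and not for Tnnt3 and Tnni2. The 250 bases before the transcription start are shown for these 4, because Chrng, Ckm and Tnnt1 were lower together while Myog, whose product binds E-boxes, was higher. Capitals mark CAGCTG, the E-box form bound by myogenic factors, CTANNNNTA, a loose form of the site of MEF2 factors, and AAGTG, the core of the NKX2-5 site, each searched on both strands. They lie at chr1:87205561-87205810 on the plus strand (Chrng), chr7:19410844-19411093 on the plus strand (Ckm), chr7:4515976-4516225 on the minus strand (Tnnt1) and chr1:134289754-134290003 on the plus strand (Myog), and are written 5′ to 3′ on the strand of the gene.
Chrng: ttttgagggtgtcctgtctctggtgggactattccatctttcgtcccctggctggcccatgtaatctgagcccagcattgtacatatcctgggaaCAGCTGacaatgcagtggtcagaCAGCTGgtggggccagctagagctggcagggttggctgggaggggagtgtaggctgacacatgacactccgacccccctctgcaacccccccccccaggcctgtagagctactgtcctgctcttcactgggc
Ckm: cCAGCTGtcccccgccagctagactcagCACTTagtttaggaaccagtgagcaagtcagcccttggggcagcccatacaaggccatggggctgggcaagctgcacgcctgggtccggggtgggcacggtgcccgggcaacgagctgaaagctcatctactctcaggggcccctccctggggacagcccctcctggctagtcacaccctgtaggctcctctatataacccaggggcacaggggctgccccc
Tnnt1: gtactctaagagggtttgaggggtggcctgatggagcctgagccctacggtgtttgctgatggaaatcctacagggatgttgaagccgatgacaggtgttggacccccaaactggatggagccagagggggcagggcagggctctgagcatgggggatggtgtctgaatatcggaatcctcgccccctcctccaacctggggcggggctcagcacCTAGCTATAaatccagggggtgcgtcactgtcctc
Myog: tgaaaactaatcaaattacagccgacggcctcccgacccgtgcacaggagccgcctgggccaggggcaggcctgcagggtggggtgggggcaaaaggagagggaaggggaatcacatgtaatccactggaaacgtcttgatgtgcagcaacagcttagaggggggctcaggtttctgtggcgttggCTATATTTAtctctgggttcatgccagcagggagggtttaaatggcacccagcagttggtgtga

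Chrng held 2 copies of CAGCTG, beginning 155 and 132 bases before the start, and Ckm held 1, at 249 bases, where 13% of the 32851 promoters in the table hold at least 1. Tnnt1 and Myog held none, although each had an E-box of the general form CANNTG, which includes CAGCTG and is found in 66.2% of promoters. CTANNNNTA was found in Tnnt1, 35 bases before the start and overlapping the TATAAA at 30 bases, and in Myog at 64 bases, against 19.0% of promoters. TATAAA itself was in 12.4% of promoters, and in Tnnt1 alone of these 4. AAGTG was found in Ckm alone, at 222 bases and on the opposite strand, against 40.7% of promoters, and the longer form TNAAGTG, in 10.1% of promoters, in none of the 4. A match is a description of letters in this window, and no binding was measured here.

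With only 2 group values per gene, likeness to other genes could be measured only by level and difference. For each gene, the nearest 2 listed protein-coding genes in log2 control reads and normalized difference were taken. Mb, encoding the muscle oxygen carrier myoglobin, was nearest to Tnnt1, at a distance of 0.48 log2 units, at 10093 raw reads in the control group against 1846 in the hypomorph (difference -1.95), and the next was Col2a1 at 0.65. Acvr1c and Slc26a10 were nearest to Ckm (0.12 and 0.15), Rasgef1a to Chrng (0.18), and Islr2 to Myog (0.052). Treml2 and Polq lay close to Tnni2 (0.037 and 0.058), in the dense part of the table near the 1.5-fold limit. The nearest genes of Tnnt3 were Aqp3 and Gfi1b at 0.47 and 0.48, both with smaller differences (1.61 and 1.89).

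**Figure D5:**
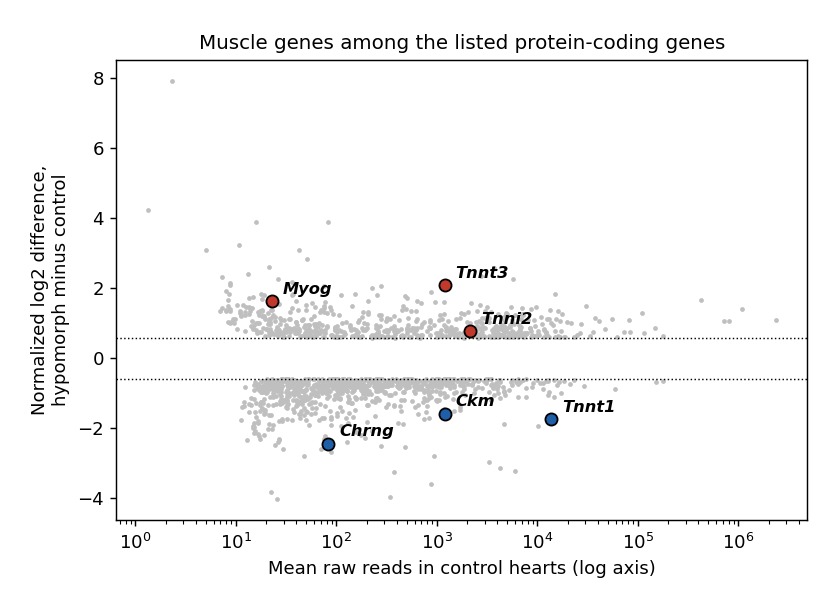
Normalized log2 difference (hypomorph minus control, vertical axis) against the authors' mean raw reads in control hearts (horizontal, log axis) for the 1492 listed protein-coding genes (grey) and the 6 muscle genes (red higher, blue lower). Dotted lines mark 1.5-fold, inside which no gene is listed. Tnni2 lies near the upper line at 0.76, and the other 5 lie beyond 2-fold, from Chrng at -2.44 to Tnnt3 at 2.08.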

How the data were processed

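RNA-seq was performed by the authors on 3 control and 3 hypomorphic E11.5 hearts (Genome Analyzer IIx, TruSeq libraries; CASAVA 1.4 in the submitters' processing notes). Per the paper's methods, reads were aligned to mm9 with TopHat and analysed in Avadis NGS, whose versions are not given in the sources used here. The deposited table holds the authors' mean raw reads (estimated counts, not whole numbers) and the authors' mean normalized log2 values per group, the latter set against a reference level of its own for every gene, by a method not given in the sources used here. Columns with the authors' own fold changes and direction were not used.

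Here the difference was computed as the normalized log2 value of hypomorphic minus control hearts. The planned model fits need values per heart, so only the description planned for group values was made. Raw means were compared as log2 ratios, unscaled or scaled in 5 ways, with Clopper-Pearson intervals. Positions, transcript lengths and exon overlaps were taken from GENCODE M1 (mm9), matched by Ensembl identifier for 1469 of 1492 genes. No 36-base stretch of the annotated transcripts of Tnnt3, Tnni2, Tnnt1, Chrng or Myog occurs in protein-coding transcripts of other genes, and 25.6% of those of Ckm occur in its antisense neighbour. Named genes are the 6 members, listed genes of 14 gene lists and the nearest 2 genes of each member, of which some are not reported here. Members and lists were chosen with earlier results of these data known. On simulated data, only the recovery of a factor between groups, of the direction of planted changes and of genes with uneven hearts was tested. Computations ran in Python 3.11.15 (pandas 2.3.3, numpy 2.4.6), intervals came from scipy 1.17.1, and plots from matplotlib 3.10.9.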

Additional observations from a re-analysis of the deposited data

How the results depend on the processing

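Of 36 values computed for the 6 genes under 5 scalings between groups and a pseudocount of 1 read, 32 kept their direction past 1.5-fold. The other 4 were those of Tnni2, which gave 0.29 without scaling or with the pseudocount, 0.27 with the total without globin genes, and reversed to -0.080 with the total of the table. The scalings use listed genes, whose totals are not depths, and which factor is right was not tested. The number of higher genes, 3, was 2 under these 3 scalings and with a 2-fold limit, and the number of lower genes was 3 under each alternative run. The contrast of fast troponins with the other 4 genes, 2.46, moved to 3.09 with medians in place of means, since the median of the other 4 lies between Tnnt1 and Ckm, and was 2.31 from raw means. The share of higher genes among listed genes, 42.0%, was 16.1% over genes past 1.5-fold without scaling and 41.9% over all gene types. No paired analysis was possible because hearts were given only as group means. Leaving out each replicate, a replicate block, edgeR, DESeq2, TMM against size factors, and the fit with no filter on low counts, all of which need values per heart, were not run.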
